A study of Mus musculus with 8 samples.

Results

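Matrix metalloproteinases (MMPs), their tissue inhibitors (TIMPs) and the related protease gene Adamts1 were followed in 4T1 cells, a mouse mammary tumour line, with and without an shRNA against Etv5. The members are 10 genes taken by symbol from a table of 24787 rows: Mmp3, Mmp9, Mmp10, Mmp13, Mmp14, Mmp15, Timp1, Timp2, Timp3 and Adamts1. All 10 have a row. RNA was sequenced in 4 shEtv5 libraries, labelled Etv5 knockdown, and 4 shcontrol libraries, labelled WT, which carry a control shRNA. Both groups are cultured 4T1 cells that express an shRNA, and the library names give each group 1 construct, so an effect particular to that shRNA and an effect of targeting Etv5 cannot be told apart. The labels do not tell separate cultures from repeat preparations, so each p-value reflects spread among these libraries, possibly technical. Each gene has 1 value per library, its average read coverage scaled for depth (coverage value). It is taken as a value per length, which was not tested, and levels of different genes are set side by side on that scale. How it was averaged is not known. Read depth is unknown too, because no counts are given.

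MMPs are zinc-dependent endopeptidases that are made as inactive proenzymes and that cut proteins of the extracellular matrix and the cell surface. Stromelysins (Mmp3, Mmp10) cut proteoglycans, laminin and fibronectin and activate other proMMPs, the collagenase Mmp13 cuts fibrillar collagen, the gelatinase Mmp9 cuts denatured collagen and basement membrane collagen, and the membrane-type MMPs (Mmp14, Mmp15) act at the cell surface, where MMP14 together with TIMP2 activates proMMP2. TIMPs bind the active site of MMPs and block it, and the balance between both families is a classical topic in the invasion of mammary carcinoma. ADAMTS1, a secreted relative with thrombospondin repeats, cuts the proteoglycans versican and aggrecan.

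Mmp13 and Mmp3 fell in the shEtv5 libraries, to 5.80-fold and 2.01-fold lower group means. Mmp9, with a 1.67-fold lower mean, did not pass over 8 equally weighted libraries. It passed, at a 1.47-fold lower mean, when shEtv5 replicate 3 was left out. Adamts1 was higher without that replicate, by a ratio of means of 2.35, and was likewise not called over the 8 libraries. Mmp10, Mmp14, Mmp15, Timp1 and Timp2 were not called in either fit, and Timp3 was near 0 throughout. In bulk RNA, fewer cells that express a gene and less of its RNA per cell cannot be told apart. Groups were compared by limma on log2(value + 1) over all 11731 genes that reached 0.5 in 4 or more libraries, with a gene called at a Benjamini-Hochberg adjusted p under 0.05; 9 of the 10 members were tested and Timp3 lay under the filter. Over 8 libraries 2 of the 9 were called lower, where 0.486% of all tested genes were. None was called higher by limma, where 0.00852% of all tested genes were, and at an unadjusted p under 0.05 the members held 3 lower and 0 higher, where 5.98% of all tested genes were lower and 1.11% higher. With shEtv5 replicate 3 left out, 3 were lower, against 2.05% of all tested genes, and 1 was higher, against 1.08%.

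**Figure D1:**
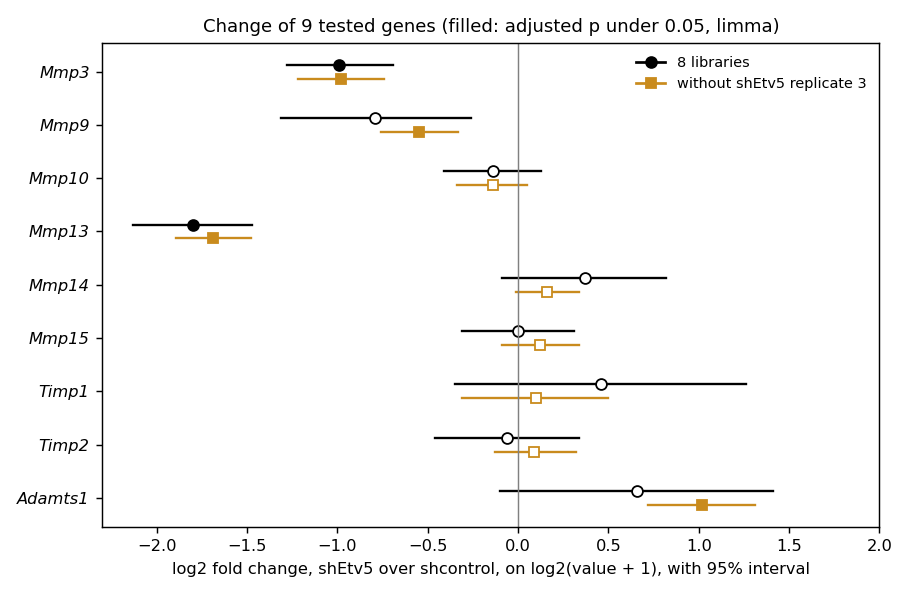
Log2 fold change of the 9 tested genes, shEtv5 over shcontrol, on log2(value + 1), with 95% intervals from limma, over 8 libraries (circles) and without shEtv5 replicate 3 (squares). Filled symbols passed an adjusted p of 0.05. Mmp13 and Mmp3 are filled in both fits, Mmp9 and Adamts1 only without that replicate, and the intervals of the other 5 genes cross 0.

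The libraries were checked first. Etv5 was at 13, 11.2, 7.52 and 12.7 in shEtv5 libraries and at 15.2, 15.1, 11.7 and 14.4 in shcontrol libraries, so the groups overlapped and the targeted transcript did not check the labels (log2 fold change -0.33, 95% interval -0.76 to 0.09, adjusted p 0.819 by limma; exact two-sided permutation p = 0.0857). Without shEtv5 replicate 3 the Etv5 means were 12.3 in shEtv5 and 14.1 in shcontrol libraries, and the groups still overlapped. The log2 fold change was then -0.17 (95% interval -0.42 to 0.07, adjusted p 0.422 by limma), with an exact two-sided permutation p of 0.171. All 10 epithelial markers passed the filter, with Krt8 at 344 or more and Epcam at 91.6 or more in every library. Of 10 fibroblast markers 9 lay under the filter, at 0.357 or less, and all 8 endothelial markers did, at 0.0632 or less. Of 14 leukocyte markers 12 lay under it, at 0.735 or less, with Cd68 and Cd14 between 2.89 and 6.07. Summed levels of the epithelial markers ran from 1411 to 3267 in shEtv5, highest in replicate 3, and from 1382 to 1867 in shcontrol libraries; those of fibroblast markers from 0.686 to 2.63 and from 2.77 to 3.66, of endothelial markers from 0.0108 to 0.132 and from 0.0547 to 0.164, and of leukocyte markers from 6.28 to 8.49 and from 8.23 to 10.6, with shEtv5 first. At 0 in every library were 2 fibroblast, 1 endothelial and 4 leukocyte markers. Without shEtv5 replicate 3, Cdh1 (E-cadherin) was higher (adjusted p 0.00455 by limma) and Pdgfra lower (adjusted p 0.0452), and no marker was called over 8 libraries, where 1 epithelial marker was higher and 1 fibroblast marker lower at an unadjusted p under 0.05. Of all tested genes 1.11% were higher and 5.98% lower at that threshold. The part of these markers in the results was not tested. The shEtv5 replicate 3 library stood apart. Its values summed to 390495, against 254792 to 308393 in the other 7, and it had 13920 genes above 0, against 15126 to 15379. Each log2(value + 1) was also set against the median of its gene over the 8 libraries. In shEtv5 replicate 3 the median deviation was 0.33 in the shortest quartile of transcripts and -1.04 in the longest. The next library in that direction was shcontrol replicate 3, at 0.24 and -0.28. The members are therefore given with and without shEtv5 replicate 3.

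**Figure D2:**
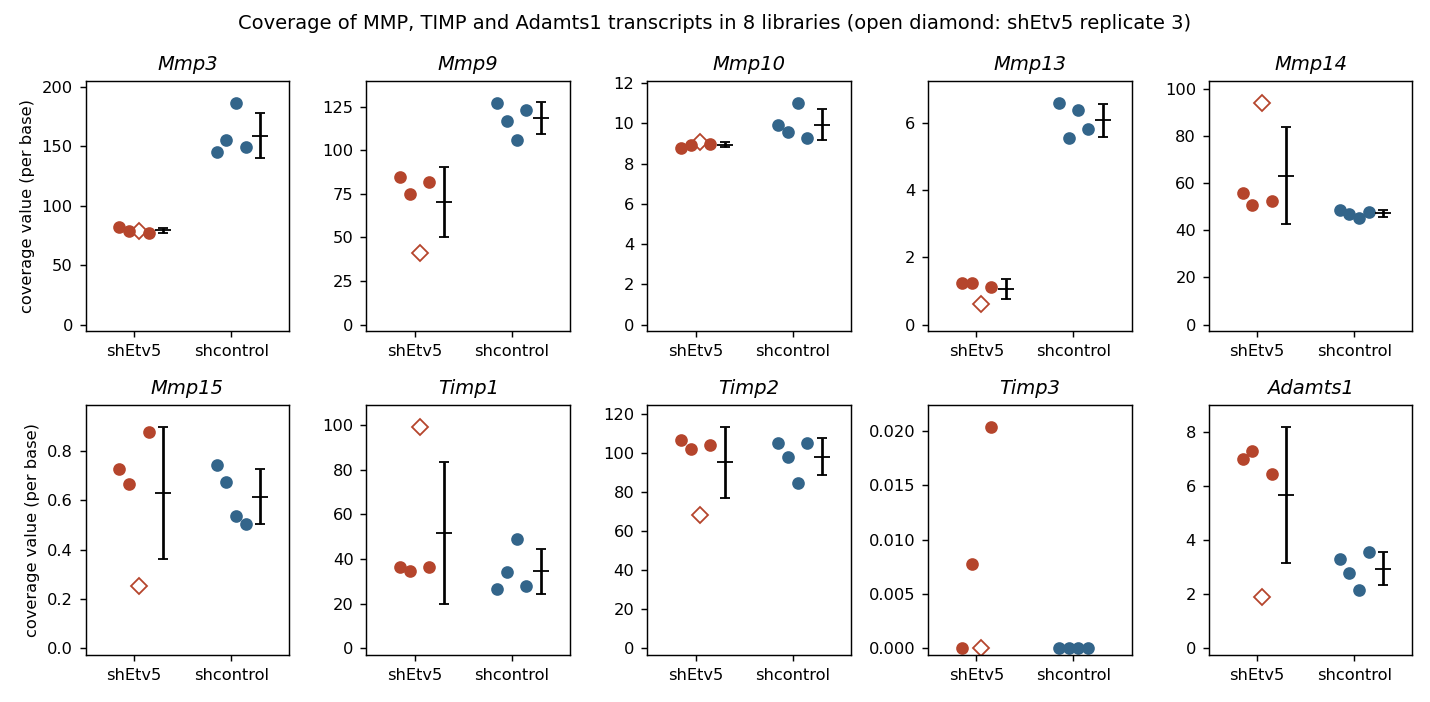
Coverage value of each member in every library, shEtv5 left and shcontrol right, with the mean and SD (n = 4 each) beside the points except for Timp3; the open diamond is shEtv5 replicate 3. Mmp3, Mmp9, Mmp10 and Mmp13 are lower in every shEtv5 library than in any shcontrol library, and the diamond lies far from its group for Mmp9, Mmp14, Timp1, Timp2 and Adamts1.

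Mmp13, the collagenase gene, had coverage values of 1.23, 1.23, 0.614 and 1.13 in shEtv5 libraries, against 6.58, 5.54, 6.39 and 5.80 in shcontrol libraries. Every shEtv5 library was low and the groups lay far apart. The means were 1.05 ± 0.294 and 6.08 ± 0.486 (SD, n = 4 each), a 5.80-fold lower mean, and 5.09-fold without shEtv5 replicate 3. On the log2(value + 1) scale, which understates the change of low genes, the log2 fold change was -1.80 (SE 0.15, 95% interval -2.13 to -1.47, adjusted p 0.000956 by limma), and -1.69 without that replicate (adjusted p 1.61e-05). Mmp13 passed the test under all 17 alternatives tried over 8 libraries, at adjusted p up to 0.00866, and under all 13 tried without shEtv5 replicate 3.

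Mmp3, which encodes stromelysin-1, was the most abundant member in shcontrol libraries. It stood at 82.3, 78.9, 78.2 and 77.3 in shEtv5 libraries and at 145, 155, 186 and 149 in shcontrol libraries. The shEtv5 libraries lay within a narrow band, replicate 3 included, below every shcontrol library. The means were 79.2 ± 2.16 and 159 ± 18.7 (SD, n = 4 each), with a log2 fold change of -0.99 (SE 0.13, 95% interval -1.28 to -0.69, adjusted p 0.0124 by limma). In the fit of 7 libraries without shEtv5 replicate 3 it was -0.98 (adjusted p 0.00134), and the call then held under all 13 alternatives. Over 8 libraries the adjusted p by limma was 0.176 with median-of-ratios scaling and 0.0556 to 0.082 when shcontrol replicate 1, 2 or 4 or shEtv5 replicate 1, 2 or 4 was left out.

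Mmp10, stromelysin-2 and the closest relative of Mmp3 among the members, differed far less. Its values were 8.76, 8.92, 9.09 and 8.97 in shEtv5 libraries and 9.91, 9.55, 11 and 9.28 in shcontrol libraries. The groups did not overlap, but by a small margin, and the log2 fold change was -0.14 (95% interval -0.41 to 0.13, adjusted p 0.879 by limma); with median-of-ratios scaling it was 0.02. The exact two-sided permutation test of the 8 values gave p = 0.0286, the smallest it can give over 70 assignments. The ratio of Mmp3 to Mmp10 within a library was 8.61 to 9.40 in shEtv5 libraries and 14.7 to 16.9 in shcontrol libraries, a ratio that no scaling of libraries can alter. Of the 50-base stretches of the Mmp3 transcript 8.39% also occur in Mmp10 or the annotated gene Gm15244, and 8.37% of those of Mmp10 occur in Mmp3, so part of the coverage of each is uncertain. This limit weighs more on Mmp10, with a mean of 9.93 against 159 for Mmp3 in shcontrol libraries. Its part in the small difference of Mmp10 was not tested. Mmp13 and Mmp9 shared no such stretch with any other annotated transcript.

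These 3 genes lie in 1 cluster of 10 MMP genes on mouse chromosome 9, which spans 427 kb of mm10 with Mmp13 at one end. Mmp13 lies at chr9:7272514-7283331, Mmp3 at chr9:7445822-7455975 and Mmp10 at chr9:7502352-7510240, all on the plus strand. Of the 7 other genes of the cluster only Mmp1b, a relative of the interstitial collagenase gene, passed the filter. It was at 1.05, 0.873, 0.602 and 0.939 in shEtv5 libraries and at 0.895, 0.896, 1.33 and 1.12 in shcontrol libraries, and the groups overlapped (adjusted p 0.879 by limma). Mmp1a reached at most 0.291, Mmp12 at most 0.0515 and Mmp20 at most 0.00919, and Mmp7, Mmp8 and Mmp27 were listed at 0 in every library. Among genes flanking the cluster that were listed, 6 were tested, including the inhibitor of apoptosis genes Birc2 and Birc3 and the transcriptional coactivator gene Yap1, and none was called by limma in either fit. At an unadjusted p under 0.05, 1 of these was lower and 0 higher over 8 libraries, and 2 were lower and 1 higher without shEtv5 replicate 3. Of all tested genes 5.98% were lower and 1.11% higher over 8 libraries, and 10.5% and 8.38% without that replicate.

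**Figure D3:**
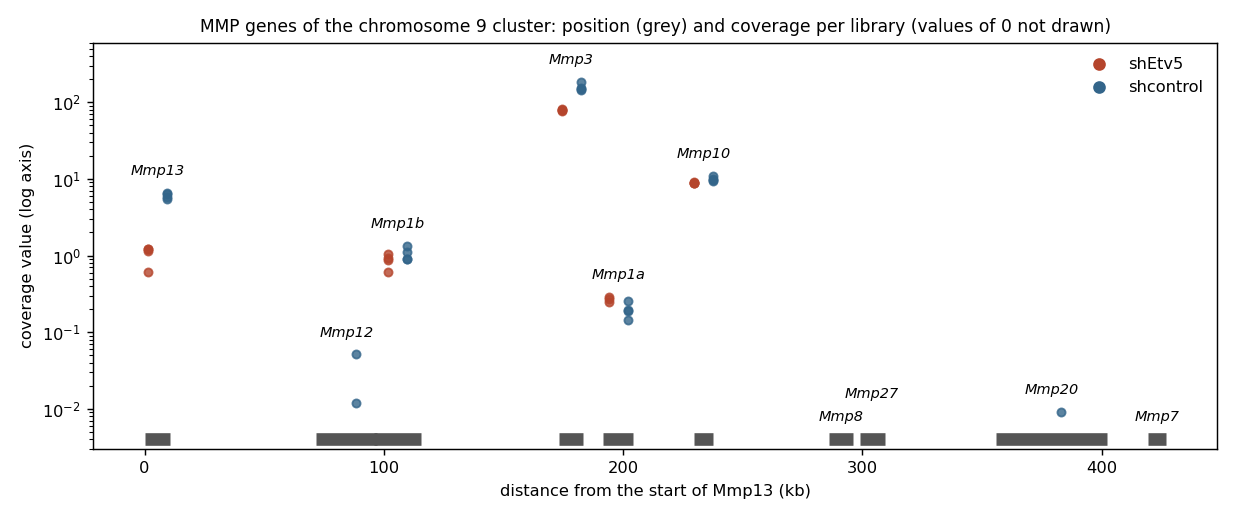
Genes of the chromosome 9 MMP cluster by distance from the start of Mmp13 in kb (grey bars), with the coverage value of each library above its gene on a log axis, shEtv5 left and shcontrol right; values of 0 are not drawn. Mmp13 and Mmp3 are lower in all shEtv5 libraries, Mmp10 lies at 8.76 to 9.09 in shEtv5 and 9.28 to 11 in shcontrol libraries, and Mmp7, Mmp8 and Mmp27 have no value above 0.

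The 250 bases upstream of the RefSeq start (GRCm38.p6) are shown for these 3 genes, because they share a cluster and differ in response. Capitals mark matches to the AP-1 motif TGANTCA and to AGGAAG, the motif of the PEA3 group of ETS factors to which ETV5 belongs, searched on both strands; no match overlapped another.
Mmp13 (chr9:7272264-7272513, plus strand): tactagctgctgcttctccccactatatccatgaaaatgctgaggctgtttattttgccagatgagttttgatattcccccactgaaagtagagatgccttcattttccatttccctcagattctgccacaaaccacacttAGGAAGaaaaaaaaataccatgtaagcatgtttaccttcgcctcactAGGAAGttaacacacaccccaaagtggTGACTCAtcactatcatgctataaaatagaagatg
Mmp3 (chr9:7445572-7445821, plus strand): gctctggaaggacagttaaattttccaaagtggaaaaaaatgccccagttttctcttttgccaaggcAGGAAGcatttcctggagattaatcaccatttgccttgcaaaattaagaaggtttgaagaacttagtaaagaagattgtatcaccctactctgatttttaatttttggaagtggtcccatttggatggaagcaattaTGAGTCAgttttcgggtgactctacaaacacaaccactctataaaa
Mmp10 (chr9:7502092-7502341, plus strand): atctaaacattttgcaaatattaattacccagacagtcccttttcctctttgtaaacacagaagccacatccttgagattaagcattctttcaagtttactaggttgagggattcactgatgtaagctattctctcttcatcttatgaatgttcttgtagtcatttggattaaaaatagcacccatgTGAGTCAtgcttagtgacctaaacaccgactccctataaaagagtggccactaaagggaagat
Each of the 3 held 1 AP-1 match within 63 bases of the start, TGACTCA in Mmp13 and TGAGTCA in Mmp3 and Mmp10. Such a match occurs, at any position, in 6.75% of the 32851 promoter windows of this length. AGGAAG occurred 2 times in Mmp13, 1 time in Mmp3 and not in Mmp10, and it occurs in 29.5% of all windows. The TATA motif TATAAA was also in all 3, within 29 bases of the start; 12.4% of all windows hold it at any position. Among the 9 members with a promoter entry, the 3 cluster genes were the ones with an AP-1 match, while AGGAAG was also present in Mmp14, Timp1 and Timp3. These matches describe the letters of the windows and no binding was measured.

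Mmp9, the gelatinase gene on chromosome 2 (chr2:164940780-164955850, plus strand), stood at 84.4, 75.1, 40.9 and 81.7 in shEtv5 libraries and at 127, 117, 106 and 123 in shcontrol libraries. All shEtv5 libraries were below all shcontrol libraries, with replicate 3 the lowest. The log2 fold change was -0.79 (SE 0.23, 95% interval -1.31 to -0.26), and the adjusted p of 0.375 by limma did not pass. With array quality weights over the same 8 libraries it was called lower (-0.54, adjusted p 0.000231 by limma). That setting called 1248 of all 11731 tested genes lower, where the main fit over 8 libraries called 57. Leaving out shEtv5 replicate 3, the means were 80.4 ± 4.78 (SD, n = 3) and 118 ± 9.20 (SD, n = 4), and Mmp9 was called lower at a log2 fold change of -0.55 (SE 0.10, adjusted p 0.0185 by limma). Of the 7 further single libraries, leaving out any but shcontrol replicate 3 or 4 ended this call (adjusted p 0.0658 to 0.114), as did equal sums (0.0811) and quantile normalisation (0.0556). The log2 fold change lay between -0.89 and -0.50 under every alternative tried in either fit. Lcn2, whose protein binds MMP9 in a complex known from human neutrophils, was at 1.48, 0.755, 2.24 and 1.45 in shEtv5 libraries and at 76.8, 74.7, 86.6 and 62.2 in shcontrol libraries (adjusted p 1.4e-05 by limma).

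The membrane-type gene Mmp14 had 55.8, 50.8, 94.0 and 52.4 in shEtv5 libraries and 48.5, 47.1, 45.2 and 47.9 in shcontrol libraries. Every shEtv5 value was above every shcontrol value, and replicate 3 was far above the other 3 of its group. Mmp14 was not called over 8 libraries (log2 fold change 0.37, 95% interval -0.09 to 0.82, adjusted p 0.814 by limma) or without that replicate (0.16, 95% interval -0.01 to 0.34, adjusted p 0.298). It passed by limma in 1 alternative of each fit. These were array quality weights over 8 libraries (adjusted p 0.0378) and removal of length and GC trends without the replicate (0.0479). Of all 11731 tested genes, these 2 settings called 1050 and 640 higher. Mmp15, a second membrane-type gene, was low, with 0.726, 0.668, 0.253 and 0.877 in shEtv5 and 0.742, 0.676, 0.538 and 0.505 in shcontrol libraries. Its groups overlapped, with adjusted p 0.999 and 0.523 by limma in the 2 fits. Mmp2, the proenzyme that MMP14 activates, was at 0.0962 or less in every library.

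Timp2, the most abundant inhibitor gene, had 107, 102, 68.1 and 104 in shEtv5 libraries and 105, 98.2, 84.6 and 105 in shcontrol libraries. The groups overlapped, and replicate 3 was the lowest library in each. The log2 fold change was -0.06 (95% interval -0.46 to 0.34, adjusted p 0.924 by limma), and without shEtv5 replicate 3 it was 0.09 (95% interval -0.13 to 0.32, adjusted p 0.648).

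Timp1 had 36.4, 34.7, 99.1 and 36.2 in shEtv5 libraries and 26.5, 34.1, 48.9 and 28.0 in shcontrol libraries. Replicate 3 was here the highest library of each group. Leaving it out of shEtv5, the means were 35.8 ± 0.936 (SD, n = 3) and 34.4 ± 10.2 (SD, n = 4), with a log2 fold change of 0.10 (95% interval -0.31 to 0.50, adjusted p 0.808 by limma). Over 8 libraries it was 0.46 (95% interval -0.35 to 1.26, adjusted p 0.879). The Timp1 gene lies within Syn1 on the opposite strand without sharing exon bases.

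Timp3, whose product stays bound to the matrix, was listed at 0 in 6 libraries and at 0.00774 and 0.0204 in shEtv5 replicates 2 and 4, and it was not tested. Of its exon bases 21.3% overlap exons of Syn3 on the opposite strand, and 36.3% of its 50-base stretches recur in other genes, so even these values are uncertain. Timp4 was above 0 in 1 library only, at 0.0295. In the 7 libraries, the interval for either abundant TIMP gene excluded a log2 fold change past 0.50 in either direction.

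Adamts1 (chr16:85793827-85803113, minus strand) had 6.99, 7.28, 1.91 and 6.43 in shEtv5 libraries and 3.29, 2.79, 2.14 and 3.54 in shcontrol libraries. Of the shEtv5 libraries 3 were above all shcontrol libraries, and replicate 3 was below all of them. Over 8 libraries the log2 fold change was 0.66 (95% interval -0.10 to 1.41, adjusted p 0.78 by limma). Without shEtv5 replicate 3 the means were 6.90 ± 0.430 (SD, n = 3) and 2.94 ± 0.620 (SD, n = 4), and Adamts1 was called higher at a log2 fold change of 1.02 (SE 0.13, adjusted p 0.00398 by limma). This call held under all 13 alternatives tried without the replicate, at adjusted p up to 0.0392. Over all 8 libraries limma also called it with each library's length trend removed (log2 fold change 0.83, adjusted p 0.0474). It did so too with array quality weights (0.96, adjusted p 2.28e-05). Of all 11731 tested genes, these 2 settings called 23 and 1050 higher, where the main fit over 8 libraries called 1.

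The deviation of shEtv5 replicate 3 was set beside transcript length, member by member. Its log2(value + 1) minus the median of shEtv5 replicates 1, 2 and 4 was 1.43 for Timp1, with the shortest transcript at 883 bases, and -1.46 for Adamts1, at 4884 bases. It was near 0 for Mmp3 (-0.01, 1801 bases) and Mmp10 (0.02, 1722 bases), and -0.46 for Mmp13 (2673 bases), -0.98 for Mmp9 (3175 bases), -0.60 for Timp2 (3709 bases) and -0.46 for Mmp15 (5135 bases). Mmp14, at 3238 bases, went the other way, at 0.83, where the median of tested genes of similar length was -0.46. On this scale Mmp14 and Mmp15 lay above the middle 50% of tested genes of similar length, Mmp9 and Adamts1 below it, and the other 5 within it. The added 1 understates the change of low genes. As a ratio to the median of shEtv5 replicates 1, 2 and 4, replicate 3 was at 0.348 for Mmp15, 0.501 for Mmp13 and 0.5 for Mmp9. No band was made for ratios, so the places of Mmp13 and Mmp15 hold on this scale only. Why Mmp14, Mmp15, Mmp9 and Adamts1 lay outside was not tested.

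**Figure D4:**
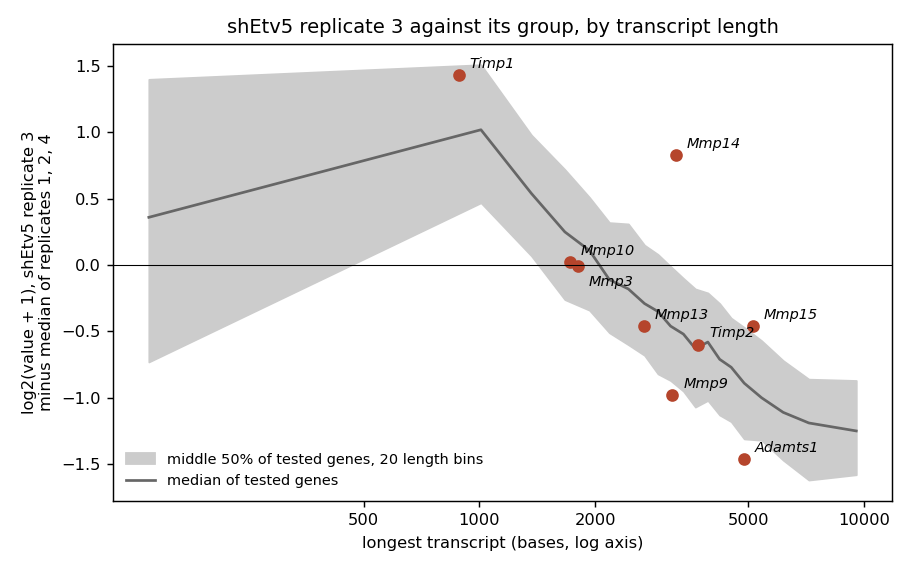
Difference of log2(value + 1) between shEtv5 replicate 3 and the median of shEtv5 replicates 1, 2 and 4, against the longest annotated transcript on a log axis, for the 9 tested members (points) and for all tested genes in 20 length bins (line, median; band, middle 50%). Timp1 is high within the band of the shortest transcripts, Mmp14 (0.83) and Mmp15 (-0.46) lie above the band, and Mmp9 (-0.98) and Adamts1 (-1.46) lie below it. The scale understates the change of low genes such as Mmp15 and Mmp13.

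Group ranges were also set beside those of all genes. Over 8 libraries the groups did not overlap in 5 of the 9 tested members. Mmp3, Mmp9, Mmp10 and Mmp13 were lower, as 7.58% of all tested genes were, and Mmp14 was higher, as 1.52% were. Over the 7 libraries the same 4 were lower, against 10.4% of tested genes, and Mmp14 and Adamts1 were higher, against 9.76%. For each member without overlap over 8 libraries the exact two-sided permutation p was 0.0286, the smallest possible, and without replicate 3 the smallest possible was 0.0571 over 35 assignments. The median log2 fold change of the 9 was -0.06 over 8 libraries and 0.09 without replicate 3, and that of all tested genes -0.11 and 0.00. Median-of-ratios scaling moved the median of all tested genes over 8 libraries to 0.02, and under that scaling Mmp3 was at -0.82 and Timp2 at 0.11.

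The order of levels among members differed between the groups, on the scale of coverage per base, which in shEtv5 replicate 3 varied with transcript length. In shcontrol libraries Mmp3 led, followed by Mmp9 and Timp2, with no overlap between neighbours, and then by Mmp14 and Timp1, whose ranges overlapped. Mmp10, Mmp13, Adamts1 and Mmp15 followed, each separate from the next. Without replicate 3, the shEtv5 libraries had Timp2 first, at 102 to 107, above Mmp9 at 75.1 to 84.4 and Mmp3 at 77.3 to 82.3, which overlapped. Mmp14, Timp1, Mmp10, Adamts1, Mmp13 and Mmp15 came next without overlap. Adamts1 thus stood above Mmp13 in all 4 shEtv5 libraries, and Mmp13 above Adamts1 in all 4 shcontrol libraries. In shEtv5 replicate 3 Timp1 led, followed by Mmp14.

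Summed over the 6 MMP genes, coverage was 233, 216, 223 and 222 in shEtv5 libraries and 338, 334, 355 and 335 in shcontrol libraries. Summed over the 3 TIMP genes it was 144, 137, 167 and 140.2 in shEtv5 libraries and 132, 132, 134 and 133 in shcontrol libraries. The ratio of both sums within a library is free of library scaling. It was 1.62, 1.57, 1.33 and 1.59 in shEtv5 libraries and 2.57, 2.53, 2.66 and 2.52 in shcontrol libraries. The lowest ratio, 1.33, and the highest TIMP sum, 167, were those of shEtv5 replicate 3, whose coverage varied with transcript length. All shEtv5 ratios lay below all shcontrol ratios, and no test is given for a sum over members chosen with results known. Mmp3 made up 34.8% to 36.6% of the MMP sum in shEtv5 and 43.0% to 52.4% in shcontrol libraries. Mmp9 made up 18.3% to 36.7% in shEtv5, with the lowest share in replicate 3, and 29.8% to 37.5% in shcontrol libraries. Mmp14 made up 23.5% to 42.1% in shEtv5, with the highest share in replicate 3, and 12.7% to 14.3% in shcontrol libraries. A share also rises where the rest of the sum is lower, and Mmp14 itself was not called in either fit. These are sums of transcript coverage, and neither protein nor protease activity was measured.

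**Figure D5:**
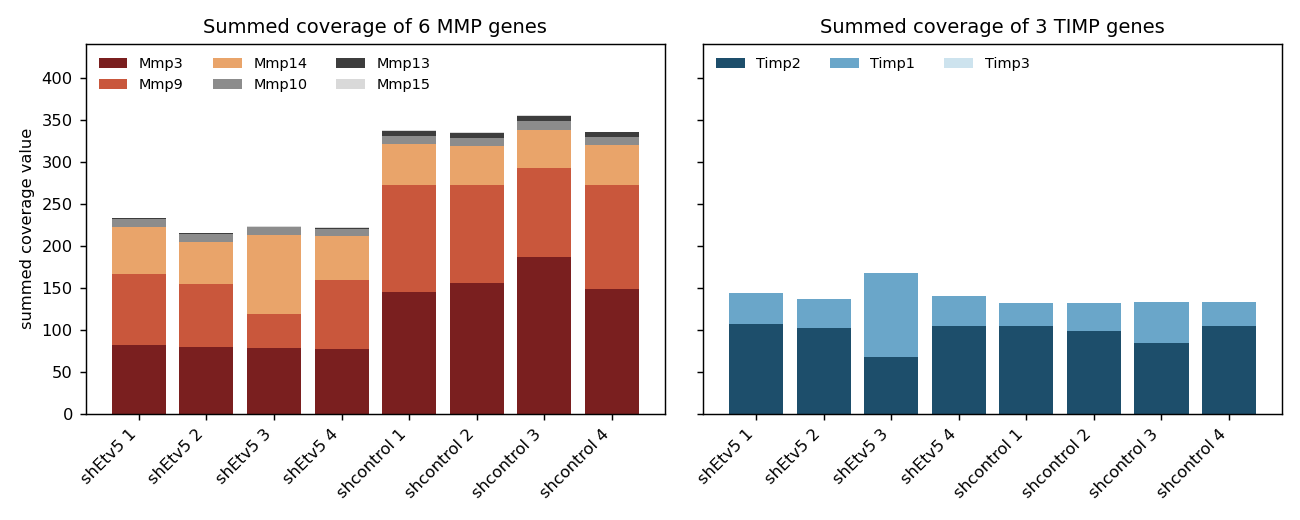
Summed coverage values of the 6 MMP genes (left) and the 3 TIMP genes (right) in each library, stacked by gene, shEtv5 libraries before shcontrol libraries. MMP sums reach 216 to 233 in shEtv5 and 334 to 355 in shcontrol libraries, and TIMP sums 137 to 167 and 132 to 134.

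Other MMP and TIMP genes were mostly under the filter. Of 18 listed, 5 passed the filter (Mmp1b, Mmp11, Mmp19, Mmp23 and Mmp24), 13 lay under it at 0.291 or less, and 5 of those were at 0 in every library. Mmp11, which encodes stromelysin-3, was at 5.92, 6.28, 4.30 and 5.20 in shEtv5 and 9.31, 9.07, 7.86 and 8.34 in shcontrol libraries. It was not called over 8 libraries (log2 fold change -0.59, adjusted p 0.248 by limma) and was lower without shEtv5 replicate 3 (-0.50, adjusted p 0.0273). Mmp19 was at 1.14, 0.857, 2.45 and 0.955 in shEtv5 and 1.33, 1.67, 1.69 and 1.16 in shcontrol libraries. Mmp24 was at 1.33 to 5.85 and 1.79 to 3.04, and Mmp23 at 0.485 to 0.683 and 0.568 to 0.844, with the shEtv5 range first. None of these 3 was called by limma in either fit. At an unadjusted p under 0.05 the list of 5 held 1 lower and 0 higher over 8 libraries, and 2 lower and 0 higher without replicate 3. Of all tested genes 5.98% were lower and 1.11% higher over 8 libraries, and 10.5% and 8.38% without replicate 3. The median log2 fold change of the 5 was -0.14 in both fits.

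No other listed ADAMTS or ADAMTS-like gene was called higher. Of 23 listed ADAMTS and ADAMTS-like genes 9 were tested, none was called in either direction by limma in either fit, and the median log2 fold changes were -0.40 over 8 libraries and -0.24 without shEtv5 replicate 3. At an unadjusted p under 0.05, 4 of them were lower and 0 higher in each fit, against 5.98% lower and 1.11% higher of all tested genes over 8 libraries and 10.5% and 8.38% without shEtv5 replicate 3. Of 11 ADAM genes, which encode membrane-bound sheddases and adhesion proteins, 8 were tested and none was called by limma over 8 libraries. At an unadjusted p under 0.05 by limma, 3 of the ADAM genes were lower and 0 higher over 8 libraries. Without shEtv5 replicate 3, 4 were lower and 2 higher, beside the same shares of all tested genes. In the 7 libraries Adam8 was lower (8.38 ± 0.381, n = 3, and 12.0 ± 1.20, n = 4; SD; adjusted p 0.0333 by limma) and Adam12 higher (4.22 ± 0.275, n = 3, and 2.28 ± 0.620, n = 4; SD; adjusted p 0.0447), with the shEtv5 mean first.

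Of 25 listed activators, receptors and other inhibitors of MMPs 19 were tested. Over 8 libraries limma called 2 lower, Lcn2 and the protease inhibitor gene Serpine2, and none higher. There were also 2 lower and 0 higher at an unadjusted p under 0.05. At an adjusted p under 0.05, 0.486% of all tested genes were lower and 0.00852% higher. Without shEtv5 replicate 3 these shares were 2.05% and 1.08%. Serpine2 was at 20.2, 19.9, 16.8 and 19.3 in shEtv5 and 47.6, 48.3, 48.3 and 47.9 in shcontrol libraries. In the 7 libraries these 2 were again lower, and Thbs1, which encodes the matricellular protein thrombospondin-1, was higher (73.9 ± 1.91, n = 3, in shEtv5 and 42.1 ± 7.77, n = 4, in shcontrol; SD; adjusted p 0.0152 by limma). The plasminogen activator gene Plau, the MMP inducer gene Bsg, the proprotein convertase gene Furin and the membrane-anchored MMP inhibitor gene Reck were not called in either fit. At an unadjusted p under 0.05 by limma, the list held 3 lower and 2 higher without shEtv5 replicate 3. Of all tested genes 10.5% were lower and 8.38% higher in that fit, and 5.98% and 1.11% over 8 libraries.

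Transcripts of MMP substrates were examined as well. Of 44 listed substrates and collagen modifiers 25 were tested, and none was called by limma over 8 libraries. Their median log2 fold changes were -0.27 over 8 libraries and -0.10 without shEtv5 replicate 3. At an unadjusted p under 0.05 by limma, 4 were lower and 0 higher over 8 libraries, against 5.98% and 1.11% of all tested genes. Without shEtv5 replicate 3, 5 were lower and 3 higher, against 10.5% and 8.38%. Abundant substrates included Spp1 (osteopontin), Fn1 (fibronectin) and the laminin chain gene Lamb1. Spp1 was at 337, 314, 262 and 298 in shEtv5 and 431, 425, 519.6 and 427 in shcontrol libraries, without overlap, and was not called (adjusted p 0.313 over 8 libraries and 0.06 without replicate 3, by limma). Fn1 overlapped between groups, at 58.3 to 252 in shEtv5 and 105 to 274 in shcontrol libraries. Lamb1 was at 47.9 to 91.3 in shEtv5 and 96.1 to 122 in shcontrol libraries (adjusted p 0.678 and 0.143 by limma). Without replicate 3, Lamb2, another laminin chain gene, was lower (6.89 ± 0.513, n = 3, in shEtv5 and 11.2 ± 1.93, n = 4, in shcontrol; SD; adjusted p 0.0366 by limma).

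The profiles most like those of the 2 called members were listed. Both members were picked as low in shEtv5 libraries, so their closest matches over the same libraries are low there by construction. Likeness was the Pearson correlation of log2(value + 1) over the 8 libraries among 7591 genes with a mean of at least 5, given as a description, since libraries of a group share their construct. For Mmp3 the closest were the neutrophil chemokine gene Cxcl5 (r = 0.989), the granulocyte growth factor gene Csf3 (0.988) and the glutaredoxin gene Glrx (0.985). For Mmp13 they were Serpine2 (r = 0.996), the chemokine gene Cxcl1 (0.995) and the RNase gene Zc3h12a (0.993). Of these 6, Glrx was not called over 8 libraries (log2 fold change -0.69, adjusted p 0.0666 by limma) but was lower without shEtv5 replicate 3 (adjusted p 0.00789), and the others were called lower over 8 libraries.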

How the data were processed

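RNA of cultured 4T1 cells was sequenced in 8 libraries made with an Illumina TruSeq kit, per the labels' protocols, and aligned with STAR 2.7.10a to mm10, per the submitters' processing notes. The deposited table holds a signal value per gene and library. Its columns come from coverage tracks, per their headers, and the values were taken as a depth-scaled average over a gene's bases. The sources used here do not name the averaging program, its annotation or the read depth, so no counting interval is given and a log-scale test took the place of a count test. Groups and replicate numbers come from sample titles. The 10 members and all gene lists were chosen with earlier results of these data known.

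Values were taken as log2(value + 1). The 11731 genes that reached 0.5 in 4 or more libraries were fitted by limma (version 3.58.1, R 4.3.3) with a mean-variance trend. Benjamini-Hochberg adjustment ran over all of them, with 8 libraries and without shEtv5 replicate 3. The fit was tested on simulated data with independent noise for each gene and library. The simulated data held no length trend, so they do not show how the fit behaves under that of shEtv5 replicate 3. Single values were also compared by exact two-sided permutation. The text names all members, Etv5, tested MMP and TIMP genes, called list genes, the 4 most abundant substrates and the 3 most like genes per called member, except 1 item that is not reported here. Further genes, chosen with values seen, are Birc2, Birc3, Yap1, Plau, Bsg, Furin, Reck, Krt8, Epcam, Cd68, Cd14 and MMP and TIMP genes under the filter. Coordinates and transcripts are from GENCODE M21 (mm10), with a length for 97.7% of rows, and promoters from RefSeq (GRCm38.p6), for 9 of 10 members. Alternatives were other scalings, filters and pseudocounts, the replicate number as a block, trend removal, array quality weights and leaving out each library.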

Additional observations from a re-analysis of the deposited data

Results flagged for a closer look

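In each group of 4 libraries, the gap of the highest or lowest library to its nearest neighbour was divided by the range of the group and set against the 95% critical value of Dixon's ratio. Over 9 tested members, Etv5 and 4 library measures this screened 28 groups, of which chance alone gives about 1.4, and 9 passed. In 8 of them the library was shEtv5 replicate 3. Among members it was the lowest of its group for Mmp13 (0.614, ratio 0.831), Timp2 (68.1, ratio 0.87) and Adamts1 (1.91, ratio 0.842). It was the highest for Mmp14 (94.0, ratio 0.883) and Timp1 (99.1, ratio 0.973). It was also the highest in the sum of values (390495, ratio 0.868), and the lowest in genes above 0 (13920, ratio 0.912) and in the median log2 deviation of the longest quartile of transcripts (-1.04, ratio 0.936). The ninth was shcontrol replicate 3, the lowest of its group in genes above 0 (15126, ratio 0.85).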

How the results depend on the processing

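Over 8 libraries 57 genes were called lower, 2 members among them, and 1 higher. Called lower and higher, the counts were 49 and 7 with median-of-ratios scaling, 42 and 0 with equal sums, 64 and 7 with quantile normalisation, 70 and 3 without a filter, 37 and 0 with a pseudocount of 0.1, 94 and 23 with length trends removed and 1248 and 1050 with array quality weights. Leaving out single libraries gave 28 to 241 lower and 0 to 127 higher, both highest without shEtv5 replicate 3; without any other single library 28 to 37 were lower. Members called lower numbered 1 with median-of-ratios scaling, 3 with array quality weights, where Mmp9 was added, and 1 to 3 with a library left out; members called higher numbered 1 with length trends removed, 2 with array quality weights and 0 to 1 with a library left out. Without shEtv5 replicate 3, 241 were lower and 127 higher. The counts were then 147 and 65 with equal sums, and 689 and 640, with 2 members higher, with length and GC trends removed. Leaving out a further library gave 82 to 625 lower and 11 to 420 higher, both highest without shcontrol replicate 3. The replicate block gave 50 lower and 1 higher over 8 libraries, and 211 lower and 80 higher without shEtv5 replicate 3, and it changed no call of a member. Same-numbered libraries deviated together at correlations of 0.55, 0.09, 0.79 and 0.51, and not every library correlated best with its own number, so the numbers were not taken as pairs. Signs turned for members not called. Mmp10 had 0.02 with median-of-ratios scaling. Timp2 had 0.11 with that scaling, 0.08 with length trends removed, 0.06 with array quality weights and -0.13 to 0.09 with a library left out, positive without shEtv5 replicate 3, where its difference of means was 6.27. Mmp15 had -0.01 with equal sums, -0.05 with a pseudocount of 0.1 and -0.07 to 0.12 with a library left out. Without shEtv5 replicate 3, Timp1 had -0.01 to 0.27 with a further library left out. The causes were not tested. DESeq2 was not run, since the table holds no counts. Equal sums, quantile normalisation and the further libraries left out without shEtv5 replicate 3 were chosen after seeing the data.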
